A study of Mus musculus with 8 samples.

Results

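The cells described here were 251 barcodes that carried Sfrp5 together with Itgb4 or Cldn1, genes of the perineurium, and that the deposited cell annotation did not list. They were found among 35811 barcodes of synovial cells from mouse ankle and wrist joints in 3 unsorted droplet libraries, and among 47658 barcodes in the series as a whole. A barcode was taken when it had at least 500 genes detected, at most 10% mitochondrial transcripts, at least 1 unique molecular identifier (UMI, a counted transcript) of Sfrp5, at least 1 UMI of Itgb4 or Cldn1, and 0 UMIs of Krt5, Pecam1 and Ptprc. They are called gated cells below, because the rule brought in a second kind of cell beside the perineurial-like ones. The TNF-inhibited library held 94 of them, the IL-17-inhibited library 111 and the untreated library 46.

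The perineurium is the sleeve of flattened, epithelium-like cells that wraps each bundle of axons in a peripheral nerve. Its cells are joined by tight junctions, sit on a basement membrane bound through laminin receptors, and form the blood-nerve barrier together with the vessels inside the nerve. In the mouse, Desert hedgehog released by Schwann cells, the glia that ensheathe axons, is required for the sheath to form. Nerve branches run through the joint capsule and synovium, so a synovial digest can hold cells of their sheaths.

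In each unsorted library, cells of 3 arthritic animals were pooled with those of 1 healthy animal. The arthritic animals carried the hTNFtg197 transgene for human TNF (strain B6-Tg(TNF)197Gkl) and had received Il23mc for 9 days. The first group also received an anti-hTNF antibody (TNF-inhibited), another an anti-mIL-17a antibody (IL-17-inhibited), and the third no antibody (untreated). The healthy animals were wild type and had no treatment, and all animals were 8 to 10 weeks old. Cells were sorted as viable and CD45-negative. A 4th library, sorted for FAP and Pdpn from 5 arthritic animals without inhibitor, was outside the rule. Because 1 treatment filled 1 library, treatment and library cannot be told apart among arthritic animals except through the healthy animal that each library shares.

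Cells of each animal carried their own hashtag antibody, and 4 oligos therefore decide which gated cell counts for which animal. Hashtags 1 to 3 stood for the arthritic animals and hashtag 4 for the healthy animal of a library, with these sequences written 5′ to 3′:
hashtag 1: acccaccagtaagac
hashtag 2: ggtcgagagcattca
hashtag 3: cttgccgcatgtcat
hashtag 4: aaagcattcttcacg
Of the 251 gated cells, 154 were assigned to 1 animal, 19 carried 2 hashtags and 78 carried too little of any. Hashtag 4 was mixed in 2 libraries: of the quality-passing barcodes called for hashtag 4, 178 of 938 in the TNF-inhibited library and 101 of 670 in the IL-17-inhibited library held Y-linked transcripts without Xist, while 612 and 461 held Xist without Y-linked transcripts. In the untreated library these counts were 3 and 892 of 1013. Among the gated cells called for hashtag 4, 1 of 9 and 2 of 9 held Y-linked transcripts only. In quality-passing barcodes of TNF-inhibited animals 1 and 2, IL-17-inhibited animal 1 and untreated animal 2, Y-linked transcripts prevailed over Xist. Xist prevailed in the other arthritic animals, and sex was not a term in any fit.

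The libraries held 149863971 UMIs (TNF-inhibited), 180057537 (IL-17-inhibited) and 149149135 (untreated). Gated cells had a median of 5595, 5985 and 5806 UMIs in these libraries, against 16015.5, 15930.5 and 13785.5 UMIs in annotated fibroblasts. They ranged from 1444 to 24319 UMIs. Between 32 and 51 barcode sequences recurred between any pair of libraries, and no gated cell had its barcode among the gated cells of another library.

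The genes of the gate give the size of what was selected and are no finding. Sfrp5, a secreted Wnt inhibitor (chr19:42197971-42202252, mm10), had 1640, 1645 and 1344 UMIs per 1000000 (CPM) in the gated cells of the TNF-inhibited, IL-17-inhibited and untreated libraries, against 0.261, 0.412 and 0.162 CPM in annotated fibroblasts. Itgb4, the laminin-binding integrin β4 chain, had 546, 815 and 449 CPM in gated cells. Cldn1, a claudin of tight junctions, had 596, 499 and 514 CPM. The median gated cell held 6 Sfrp5 UMIs, 34 cells held only 1, and 170 cells held Itgb4 and Cldn1 together, 59 Itgb4 alone and 22 Cldn1 alone. Just outside the gate, 352 barcodes failed only for want of Sfrp5 and 120 only for want of Itgb4 and Cldn1, while 18 failed only through Krt5 and 9 only through Pecam1. Of the 352 without Sfrp5, 59 lay in the cluster that held most gated cells, and of the 120 without Itgb4 or Cldn1, 18 did. Another cluster, called Schwann-like below, held 18 of the 352 and 80 of the 120.

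The gated cells fell into 2 kinds when all 12913 quality-passing unannotated barcodes were clustered without the 6 genes of the rule. The larger kind had 210 of the 251 cells (83.7%), in a cluster of 319 barcodes led by Hcn4, Clec1a, Ildr2, Itih2, Igfbp6, Ralgps2, Itga6, Fzd2, Ntng1 and Sbspon, and is called perineurial-like. The smaller kind had 34 cells (13.5%), in a cluster of 209 barcodes with the myelin and axon-contact genes Kcna1, Mbp, Ncmap, Gatm, Pou3f1, Mal, Cnp and Kcna2 among its leading genes, and is called Schwann-like. The other 7 cells (2.79%) were spread over clusters led by lining, bone, tendon-like, mural, myeloid or glandular genes.

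A gated cell of the perineurial-like cluster had detected a median of 8 of 15 perineurial markers that the rule did not use and 1 of 14 Schwann markers. A gated cell of the Schwann-like cluster had detected 2 of 15 perineurial markers and 8 of 14 Schwann markers. The perineurial-like cells entered the gate through Cldn1 in 180 of 210 cells and through Itgb4 in 190 of 210. The Schwann-like cells entered almost wholly through Itgb4, which Schwann cells also use, with Itgb4 in 32 of 34 cells and Cldn1 in 6 of 34. They also held fewer Sfrp5 UMIs, with a median of 2.5 against 8 in the perineurial-like cells. In the whole Schwann-like cluster, gated or not, 57.4% of barcodes held Sfrp5, at 388 CPM.

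**Figure D1:**
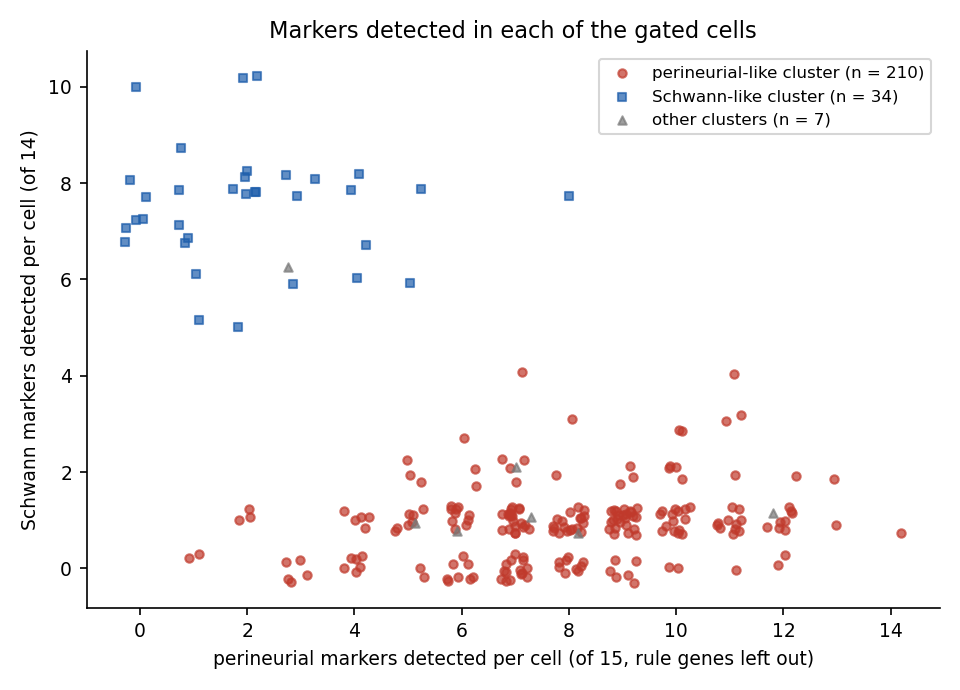
Perineurial markers (x axis, of 15) and Schwann markers (y axis, of 14) with at least 1 UMI in each gated cell, with points shifted at random so that they can be told apart. The 210 perineurial-like cells lie at 4 or fewer Schwann markers, and the 34 Schwann-like cells reach 10 Schwann markers and at most 8 perineurial ones.

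The proportions of the 2 kinds were counted by library and not tested. Schwann-like gated cells numbered 8, 15 and 11 in the TNF-inhibited, IL-17-inhibited and untreated libraries. Perineurial-like cells made up 90.4%, 82.0% and 73.9% of the gated cells in the TNF-inhibited, IL-17-inhibited and untreated libraries, and Schwann-like cells 8.51%, 13.5% and 23.9%. Mbp, a protein of compact myelin, had 258, 159 and 638 CPM in all gated cells of these libraries, against 1.4, 1.72 and 1.19 CPM in fibroblasts. Pooled over libraries, Mbp had 2.88 CPM in the perineurial-like cells and 1973 CPM in the Schwann-like cells, so its level among gated cells depends on the few Schwann-like cells. Of these 34 cells, 26 carried too little hashtag to be assigned to an animal.

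Against annotated fibroblasts of the same library, 156 of 8555 genes with enough signal were at least 4-fold higher in the gated cells in each of the 3 libraries (1.82%), and 41 were at least 4-fold lower (0.479%), with 10 CPM added to each value. Against the other unannotated barcodes, 120 genes were higher (1.4%) and 34 lower (0.397%) by the same rule. These ratios describe cells that were chosen by expression, so no test is given. Of the 14 measured perineurial markers outside the gate, 12 were among the 156 higher genes and 0 among the lower ones. The median log2 ratio of the 14 was 3.78, beside 0.22 over all genes tested. The exceptions were Crabp2, a retinoic acid binding protein with 258, 262 and 172 CPM in gated cells and 269, 251 and 227 CPM in fibroblasts, and Efnb3, an ephrin with 19.3, 31.1 and 42.3 CPM in gated cells and under 1 CPM in fibroblasts. Adamtsl2 was too low to be measured.

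The 25 genes that stood highest above fibroblasts in their weakest library began with Itga6, the α6 chain that pairs with Itgb4 to form a laminin receptor. Itga6 (chr2:71745616-71858416) had 1113, 990 and 1126 CPM in the gated cells of the TNF-inhibited, IL-17-inhibited and untreated libraries, against 8.54, 15 and 12.5 CPM in fibroblasts. It was detected in 88.4% of the gated cells. Bcam and Itga7, which also bind laminin, were on the same list. Bcam had 158, 158 and 156 CPM in gated cells and at most 0.760 CPM in fibroblasts. Itga7 had 150, 123 and 163 CPM in gated cells and at most 1.69 CPM in fibroblasts. Each of these 3 genes stayed at a like level in the gated cells of the 3 libraries.

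Genes of cell junctions and of an epithelial cytoskeleton were in the same group. Mpzl2, an adhesion molecule of epithelia, had 216, 191 and 179 CPM in gated cells, against 1.72, 0.856 and 0.719 CPM in fibroblasts. Perp, a component of desmosomes, had 219, 245 and 179 CPM, against 2.52, 3.32 and 1.06 CPM. Krt19 (chr11:100140810-100148665), a keratin of simple epithelia, had 148, 179 and 150 CPM, against 0.0713, 0.127 and 0.104 CPM. Ildr2, a protein of tricellular junctions, had 403, 383 and 303 CPM, against 9.11, 11.5 and 15.7 CPM.

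Channels, signalling receptors and secreted proteins filled much of the remaining list. Hcn4 (chr9:58823412-58863175), the channel subunit best known from the pacemaker of the heart, had 417, 419 and 312 CPM in gated cells and 0.713, 0.835 and 0.742 CPM in fibroblasts. Cavin2, a coat protein of caveolae, had 817, 663 and 596 CPM in gated cells and 3.93, 7.97 and 6.45 CPM in fibroblasts. Igfbp6, which binds insulin-like growth factor II, was the most abundant of the 25, with 6858, 7048 and 6523 CPM in gated cells and 443, 526 and 449 CPM in fibroblasts. The transcription factor Klf5 had 614, 549 and 452 CPM in gated cells and 28.5, 30.1 and 29.7 CPM in fibroblasts. Fzd2, a Wnt receptor, had 404, 306 and 394 CPM in gated cells and 10.3, 15 and 16.4 CPM in fibroblasts. Ntng1 and Tenm2, membrane proteins of neuronal contact and guidance, had 222, 216 and 143 CPM and 127, 158 and 231 CPM in gated cells, and under 1 CPM in fibroblasts. Others on the list were Ralgps2, Clec1a, Rgs16, Dock9, Itih2, Sbspon, Plcb3, Gpm6a, Prodh and Msln. The smallest log2 ratio of any library among the 25 genes was 5.32 for Itga6 and 3.45 for Msln.

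**Figure D2:**
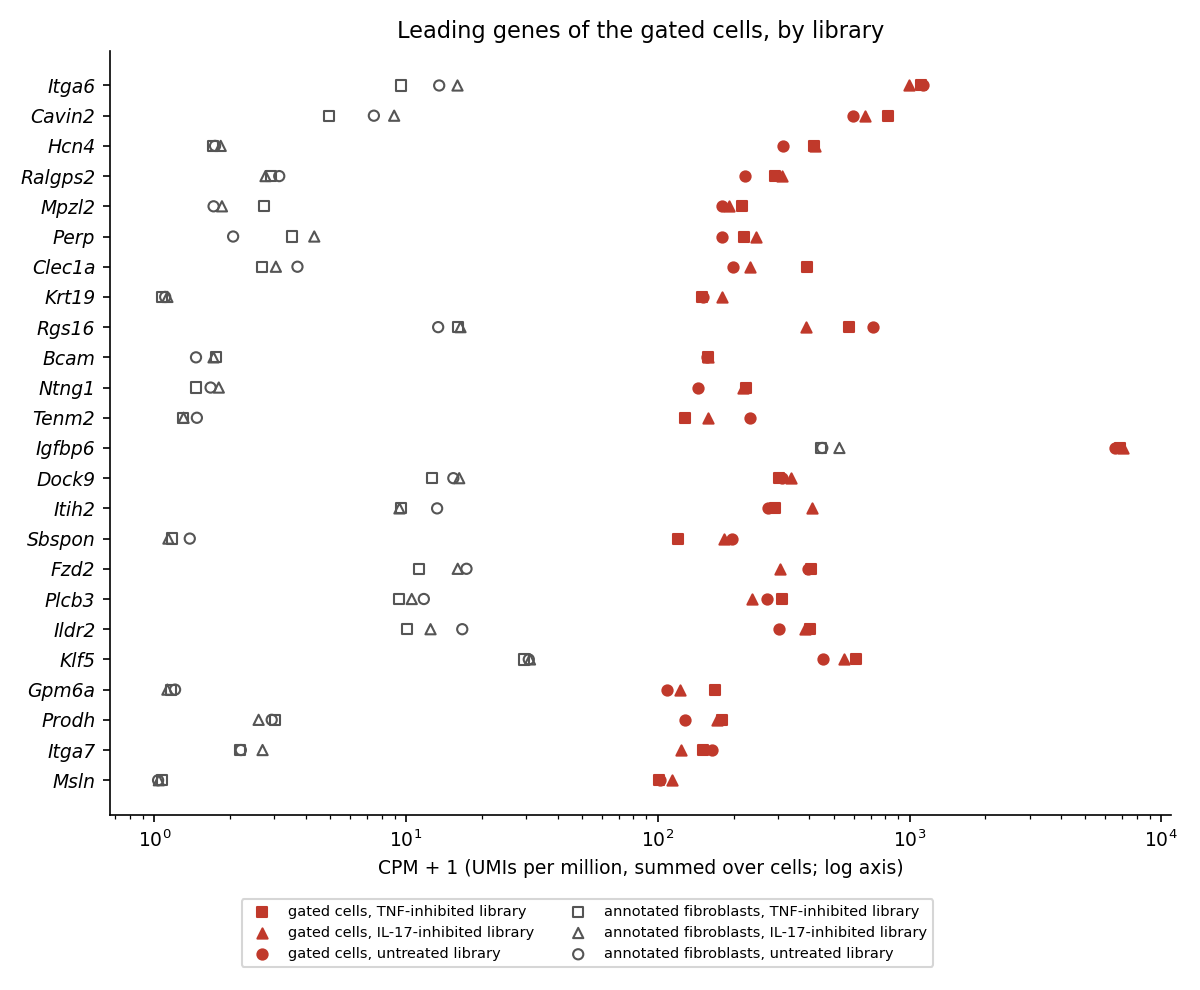
CPM + 1 (log axis) of genes that stood highest above fibroblasts, 1 gene per line, in gated cells (red) and annotated fibroblasts (open grey) of the TNF-inhibited (squares), IL-17-inhibited (triangles) and untreated (circles) libraries. Each gene's 3 red points lie close together and to the right of its 3 grey points, with Itga6 at 990 to 1126 CPM in gated cells and 8.54 to 15 CPM in fibroblasts.

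The list was also read in a library that the rule left out. In the FAP-sorted library, 67 of 10002 quality-passing barcodes were unannotated and met the same gate, and all 25 genes were at least 4-fold higher in them than in the annotated fibroblasts of that library, with a median log2 ratio of 3.99 and a smallest one of 3.13 (Itga7). Of the 14 perineurial markers, 13 were at least 4-fold higher there, and Crabp2 was not. Within the perineurial-like cluster, the 210 gated cells had 1247 CPM of Itga6 and 8252 CPM of Igfbp6, against 858 and 5736 CPM in the 109 barcodes that missed the gate.

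Of 10 measured tight junction genes outside the gate, 3 were at least 4-fold higher than in fibroblasts and 0 lower, with a median log2 ratio of 1.17. Tjp1, the scaffold ZO-1, had 322, 324 and 283 CPM in gated cells of the TNF-inhibited, IL-17-inhibited and untreated libraries, against 27.9, 27 and 32.1 CPM in fibroblasts. F11r, the junctional adhesion molecule A, had 137, 137 and 87.9 CPM, against 1.46, 0.972 and 1.23 CPM. Cldn22 was the third, with 51.5, 95.7 and 68.3 CPM. Ocln, the occludin of tight junction strands, had 29.0, 27.3 and 26.0 CPM in gated cells and under 0.1 CPM in fibroblasts, and missed the 4-fold threshold with 10 CPM added. The endothelial claudin Cldn5 had 1 UMI or none per library, and Cldn15, Marveld2, Marveld3 and Tjp3 had 0 UMIs in all gated cells.

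Of 15 measured genes of transport and barrier metabolism, 4 were at least 4-fold higher and 0 lower. Slc2a1 (chr4:119108711-119137983), the glucose transporter GLUT1 that is used as a perineurial marker, had 680, 709 and 713 CPM in gated cells, against 95.3, 70.2 and 68.7 CPM in fibroblasts. Abcb1a, an efflux pump of the blood-nerve and blood-brain barriers, had 116, 130 and 124 CPM, against 8.36, 8.49 and 7.90 CPM. Cav1 and Cav2, which build caveolae, were the other 2, with 746, 882 and 762 CPM of Cav1 in gated cells and 143, 170 and 147 CPM in fibroblasts. Ldha, a glycolytic enzyme, was not among the higher genes, with 232, 255 and 254 CPM in gated cells and 543, 453 and 419 CPM in fibroblasts.

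Basement membrane genes were mostly close to the fibroblast level. Of 21 measured, Itga6 and Col4a4 were at least 4-fold higher and 0 were lower, with a median log2 ratio of 0.58. Col4a4, a chain of the type IV collagen network of barriers, had 88.6, 96.9 and 78.1 CPM in gated cells and 1.45, 1.20 and 3.09 CPM in fibroblasts. Lamb2, the laminin β2 chain, had 420, 435 and 400 CPM in gated cells and 71.6, 101 and 102 CPM in fibroblasts and missed the threshold in the untreated library, with a smallest log2 ratio of 1.88. The main type IV chains were on the fibroblast side, with 503, 342 and 674 CPM of Col4a1 in gated cells and 802, 522 and 747 CPM in fibroblasts.

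The hedgehog pathway showed its receptor and target genes in the perineurial-like cells and its ligand in the Schwann-like cells. Of 9 measured pathway genes, Ptch1 and Gli1 were at least 4-fold higher than in fibroblasts, 0 were lower and the median log2 ratio was 1.12. Ptch1 (chr13:63508328-63573598), the receptor that is also a transcriptional target, had 351, 395 and 254 CPM in gated cells of the TNF-inhibited, IL-17-inhibited and untreated libraries, against 15.5, 10.7 and 15.1 CPM in fibroblasts. Gli1 (chr10:127329882-127341974), a transcription factor and target, had 61.2, 82.0 and 68.4 CPM, against 2.19, 2.67 and 2.96 CPM.

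By kind of cell, Ptch1 had 418 CPM in the perineurial-like and 100 CPM in the Schwann-like gated cells. Gli1 had 84.8 and 12.5 CPM in the same order of cells, and the co-receptor Boc 128 and 25 CPM. Dhh (chr15:98891152-98898540), the ligand, had 0 UMIs in the 210 perineurial-like cells and 54.2 CPM in the 34 Schwann-like cells, where 26.5% of cells held it. The ligands Shh and Ihh had 0 UMIs in all gated cells. Dhh had 0.05 CPM or less in annotated fibroblasts pooled over libraries, and 8.68 CPM in barcodes with 2 or more Pecam1 UMIs. The presence of receptor and target in one kind and ligand in the other was seen in pooled libraries, with no test, since clustering used these genes.

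**Figure D3:**
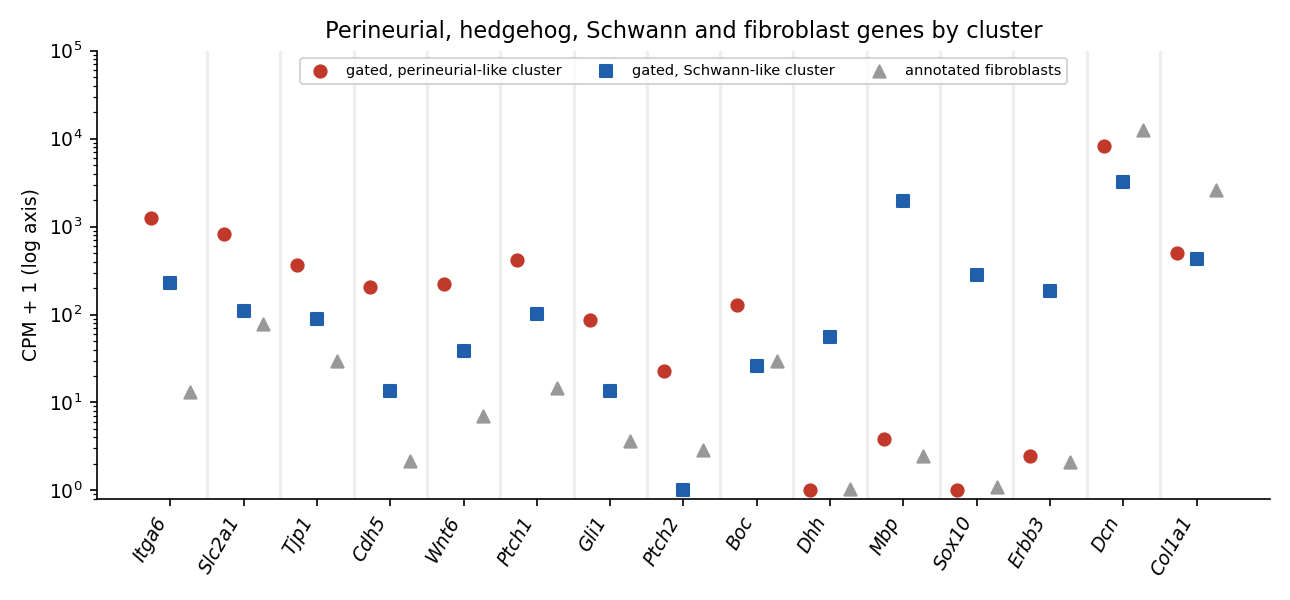
CPM + 1 (log axis), pooled over the 3 libraries, of perineurial, hedgehog, Schwann and fibroblast genes in gated cells of the perineurial-like cluster (red circles), gated cells of the Schwann-like cluster (blue squares) and annotated fibroblasts (grey triangles). Ptch1 and Gli1 are highest in the perineurial-like cells, and Dhh, Mbp and Sox10 in the Schwann-like cells.

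Wnt genes other than the gate gene Sfrp5 were few. Of 14 measured, Wnt6 was at least 4-fold higher and 0 were lower, and the median log2 ratio was -0.48. Wnt6, a secreted ligand, had 171, 220 and 127 CPM in gated cells of the TNF-inhibited, IL-17-inhibited and untreated libraries, against 2.58, 8.19 and 6.79 CPM in fibroblasts. Axin2, a target of the canonical pathway, had 1.61, 4.97 and 6.51 CPM in gated cells and 3.97, 4.22 and 4.79 CPM in fibroblasts. Of 20 measured neurotrophic and guidance genes, Ntng1, Sema3d, Ntn4 and Efnb1 were at least 4-fold higher and 0 were lower. Ntn4, a netrin of basement membranes, had 269, 214 and 127 CPM in gated cells and 17.3, 31.3 and 22.8 CPM in fibroblasts. The neurotrophic factor Cntf and the growth factor Ptn belonged to the Schwann-like cells, with 229 and 563 CPM there and 0.719 and 12.2 CPM in the perineurial-like cells.

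Genes of connective tissue fibroblasts were detected in the gated cells below the fibroblast level. Of 12 measured fibroblast markers, Lum was at least 4-fold lower and 0 were higher, with a median log2 ratio of -1.48. Lum, a small proteoglycan, had 230, 286 and 335 CPM in gated cells and 1979, 1549 and 2111 CPM in fibroblasts. Dcn was present in 100% of gated cells, with 7151, 8489 and 7248 CPM, against 13148, 10839 and 13743 CPM in fibroblasts. Barcodes with 2 or more Pecam1 UMIs, which are endothelial and should lack Dcn, held 2282 CPM of it, and the perineurial-like cells lay above that level at 8295 CPM (median depths of 5660 and 11549 UMIs). Col1a1, a chain of the main fibrillar collagen, did not, with 497 CPM in the perineurial-like cells and 634 CPM in the Pecam1 barcodes. The collagen and matrix list had 4 of 27 genes at least 4-fold lower (Tnc, Eln, Fbln2 and Col14a1) and 0 higher, with a median log2 ratio of -1.61. Thbs1, a matrix glycoprotein, lay at the other end with 789, 832 and 1172 CPM in gated cells and 129, 197 and 286 CPM in fibroblasts. Among markers of the outer nerve sheath, the epineurium, 2 of 8 were lower (Dpt and Pi16), and among those of endoneurial fibroblasts 0 of 7 were higher or lower.

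Most inflammatory genes were neither 4-fold higher nor lower in gated cells than in annotated fibroblasts. Of 19 acute-phase and IL-17 response genes, Ccl20, Lcn2, Saa3 and Hp were at least 4-fold lower, 15 were not called and 0 were higher, with a median log2 ratio of -1.25. Lcn2, an iron-sequestering acute-phase protein, had 559, 128 and 836 CPM in gated cells and 7822, 1673 and 4849 CPM in fibroblasts. Pooled over libraries, Lcn2 had 326 CPM in the perineurial-like cells and 1224 CPM in barcodes with 2 or more Pecam1 UMIs. The matrix-degrading enzymes Mmp3 and Mmp13 were lower among 12 measured, and Cxcl12 among 18 TNF and NF-κB feedback genes. Of 28 interferon response genes 0 were lower and Irf1, a transcription factor of that response, was higher, with a median log2 ratio of 0.11. Cebpb and Cebpd, transcription factors of the acute-phase response, were on the other side, with 1994 and 2798 CPM in gated cells of the TNF-inhibited library and 1124 and 1009 CPM in its fibroblasts, and neither was called. Of 21 immediate early and dissociation genes, Nr4a1 was at least 4-fold higher, with 2170, 1878 and 2275 CPM in gated cells and 445, 338 and 505 CPM in fibroblasts, and the median log2 ratio of that list was 0.82.

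Markers of other cells were checked for the same cells. Cdh5, the vascular endothelial cadherin, was at least 4-fold higher, with 177, 188 and 104 CPM in gated cells and 1.03, 1.06 and 1.31 CPM in fibroblasts. It lay in the perineurial-like cells at 205 CPM and in Pecam1 barcodes at 680 CPM. The defining endothelial genes did not come with it: Kdr, Flt1, Egfl7 and Tie1 had at most 6.51 CPM in gated cells of any library, and 207 to 504 CPM in the Pecam1 barcodes, and Mmrn1 had 0 UMIs. Of the mesothelial list, Krt19 and Msln were high, while Lrrn4, Upk3b, Muc16 and Upk1b had 0 UMIs in all gated cells and Wt1 at most 3.25 CPM. Of 5 measured keratinocyte markers 0 were higher. The list without the gate gene Krt5 summed to 166, 170 and 35.8 CPM in gated cells and 92.3, 128 and 53.6 CPM in fibroblasts. The gate allowed no Krt5 UMI, so a low keratinocyte content is partly set by the rule. Lyz2, a myeloid gene, was the 1 of 3 measured leukocyte markers that was higher, with 454, 258 and 140 CPM in gated cells, and Laptm5, Cd52, Tyrobp, Itgam and Cd3e had 0 UMIs. Pooled over libraries, the leukocyte list without the gate gene Ptprc summed to 15.8 CPM in the perineurial-like and 2207 CPM in the Schwann-like gated cells.

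The share of gated cells among all quality-passing barcodes was about 1% in the inhibitor libraries and lower in the untreated library. The TNF-inhibited library had 94 of 9323 (1.01%, Clopper-Pearson 95% interval 0.816 to 1.23), the IL-17-inhibited library 111 of 11351 (0.978%, 0.805 to 1.18) and the untreated library 46 of 10141 (0.454%, 0.332 to 0.605). These intervals cover counting error only. With every cell thinned to 2000 UMIs, which left out 397, 490 and 569 shallower barcodes, the shares were 0.773%, 0.801% and 0.251%. The perineurial-like cluster, which was built without the genes of the gate, gave 1.44%, 1.20% and 0.483% of the quality-passing barcodes. The Schwann-like cluster gave 0.493%, 0.960% and 0.532%, so it was not lowest in the untreated library.

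Per animal, the 3 TNF-inhibited animals had shares of 1.00%, 0.833% and 1.26%. The IL-17-inhibited animals had 0.652%, 0.863% and 0.793%, and the untreated animals 0.183%, 0.225% and 0.469%. The healthy animals had 0.959% in the TNF-inhibited library, 1.34% in the IL-17-inhibited library and 0.0987% in the untreated library, the last from 1 cell of 1013. The untreated animals lay below every inhibitor-treated animal, and the healthy animal of the untreated library lay below all of them. Assigned gated cells were 66 of 94 in the TNF-inhibited, 67 of 111 in the IL-17-inhibited and 21 of 46 in the untreated library. With each cell given to its highest hashtag, the untreated animals had 0.384%, 0.399% and 0.618% and the healthy animal of their library 0.329%. The inhibitor-treated animals then had 0.869% to 1.09%, still above all of these.

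The means were 1.03% ± 0.213 in TNF-inhibited, 0.769% ± 0.107 in IL-17-inhibited and 0.292% ± 0.154 in untreated animals (SD, n = 3 each), and 0.800% ± 0.637 in healthy animals (SD, n = 3). The 3 arthritic groups differed (F = 15.6, exact permutation p = 0.00714, 0.0143 adjusted over the 2 share tests). With thinned cells F was 9.54 and the exact permutation p 0.0179. Pairwise exact permutation tests of 3 animals against 3 cannot go below 0.1: the difference was 0.738 percentage points for TNF-inhibited over untreated (p = 0.1, exact), 0.477 for IL-17-inhibited over untreated (p = 0.1, exact) and -0.261 for IL-17-inhibited over TNF-inhibited animals (p = 0.2, exact). Since the wild-type animal of the untreated library was as low as its arthritic animals, treatment and library cannot be told apart.

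A difference in share between arthritic animals and the healthy animal of their library was not detectable. The mean difference was -0.103 percentage points (exact permutation p = 0.531 over 64 arrangements, adjusted p 0.531). The arthritic mean lay 0.0712 points above the healthy animal in the TNF-inhibited library and 0.194 points above it in the untreated library, and in the IL-17-inhibited library it lay at -0.574 points from it. Without the healthy animal of the IL-17-inhibited library the mean difference was 0.132 points (exact permutation p = 0.438). Shares of digested cells depend on how well each tissue came apart, and fewer cells cannot be told apart from poorer release of cells.

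**Figure D4:**
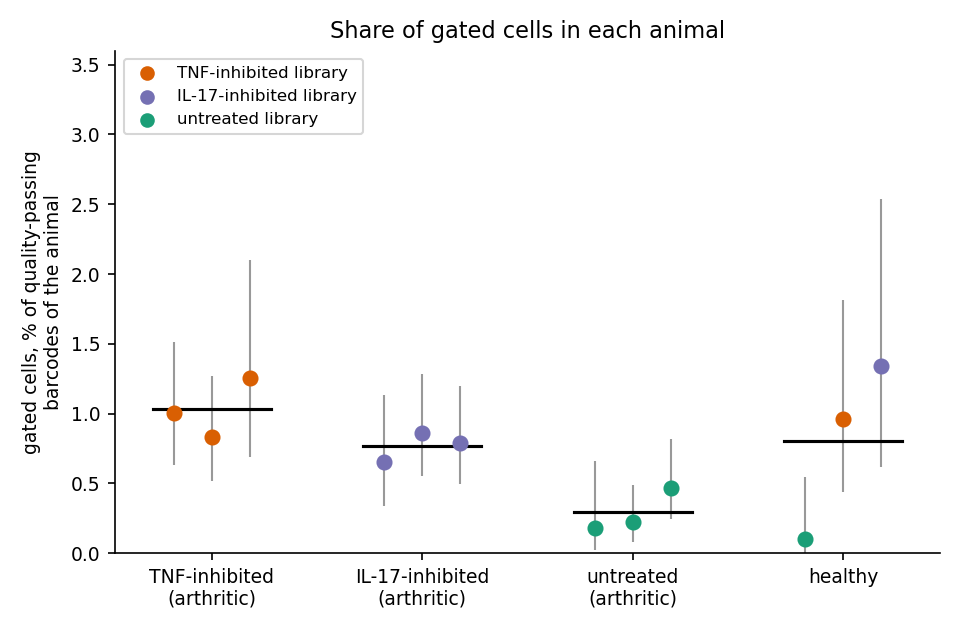
Share of gated cells among the quality-passing barcodes of each animal (y axis, %), with colours for the library, grey bars for Clopper-Pearson 95% intervals and black lines for group means. The 3 untreated animals and the healthy animal of the same library all lie below 0.5%, while every animal of the other libraries lies above 0.6%.

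Few genes of the gated cells passed a test between the arthritic groups at this depth. Raw counts were summed per animal, and 7 animals with at least 10 assigned gated cells entered the fit: all 3 TNF-inhibited and all 3 IL-17-inhibited animals and 1 untreated animal, which was assumed to vary like the others. They held 70178 to 176062 UMIs. No perineurial marker was called between any 2 groups: 0 of 16 measured, the 3 genes of the gate included, were higher or lower in the 3 contrasts. The gate selected cells on those 3 genes, so their part in this count and in the medians is no finding. Median log2 fold changes of the 16 were 0.02 for TNF-inhibited over untreated and 0.31 for IL-17-inhibited over untreated animals. For IL-17-inhibited over TNF-inhibited animals the median was -0.05. Over all 3305 genes tested the medians were 0.06, 0.06 and 0.00 in the same order. The summed level of the 15 listed genes outside the gate was 4021 ± 384 CPM in TNF-inhibited and 4174 ± 478 CPM in IL-17-inhibited animals. It was 4284 ± 1314 CPM in untreated and 4473 ± 1970 CPM in healthy animals (SD, n = 3 in each of these groups).

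Of 3305 genes, edgeR's quasi-likelihood test called 0 higher and 1 lower in TNF-inhibited over untreated animals (0.0303%), 0 higher and 2 lower in IL-17-inhibited over untreated animals (0.0605%), and 1 higher and 1 lower in IL-17-inhibited over TNF-inhibited animals (0.0605%). Unadjusted p was under 0.05 for 167, 201 and 222 genes in the same contrasts, and DESeq2 called 3, 4 and 3. Ttn, the giant protein of muscle sarcomeres, was the call in TNF-inhibited over untreated animals and 1 of those in IL-17-inhibited over untreated animals. It had 0, 7.89 and 0 CPM in TNF-inhibited animals, 0, 0 and 6.34 CPM in IL-17-inhibited animals, and 2166 CPM in the 1 untreated animal of the fit. Of the 153 Ttn UMIs in gated cells of the untreated library, 152 lay in 1 cell, which also held 27 of 28 UMIs of Neb, another sarcomere gene, and which lay outside both main clusters. The contrast in Ttn is that of 1 cell.

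Saa3, an acute-phase protein of inflamed joints, was lower in IL-17-inhibited than in TNF-inhibited gated cells. It had 622, 750 and 805 CPM in IL-17-inhibited animals, 2558, 4592 and 3843 CPM in TNF-inhibited animals and 3009, 2964 and 3705 CPM in untreated animals, the first 2 of them from under 10 cells. The IL-17-inhibited animals did not overlap with either other group. The log2 fold change was -2.33 ± 0.249 (SE) over TNF-inhibited animals (edgeR adjusted p = 0.00143) and -2.29 ± 0.311 over the 1 untreated animal of the fit, animal 3 (edgeR adjusted p = 0.00978). With all 3 untreated animals it was -2.14 and did not pass (edgeR adjusted p = 0.110). The healthy animal of the IL-17-inhibited library had 754 CPM, and those of the TNF-inhibited and untreated libraries 2342 and 4050 CPM. With library as a term, the log2 fold changes were -0.55 (edgeR adjusted p = 0.979) and -0.20 (0.902). Saa3 was found in 100% of gated cells, at 5482, 783 and 3850 CPM in the TNF-inhibited, IL-17-inhibited and untreated libraries. Pecam1 barcodes had 8334, 2272 and 4371 CPM. For Saa3 these barcodes could also hold Ptprc or Krt5 UMIs, and whether they express Saa3 themselves was not tested. By animal, the gated cells lay below the Pecam1 barcodes of the same animal in the 3 IL-17-inhibited animals, TNF-inhibited animals 1 and 2 and untreated animal 2, and above them in the other 6 of 12 animals. Expression by the gated cells and free RNA cannot be told apart here. Annotated fibroblasts had 47059, 13980 and 36907 CPM.

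Errfi1, a feedback inhibitor of EGF receptors, was the 1 gene higher in IL-17-inhibited over TNF-inhibited animals. It had 370, 420 and 393 CPM in IL-17-inhibited and 113, 118 and 123 CPM in TNF-inhibited animals, which did not overlap. Untreated animals had 177, 412 and 199 CPM and healthy animals 102, 95.9 and 0 CPM in the TNF-inhibited, IL-17-inhibited and untreated libraries. The log2 fold change was 1.74 ± 0.268 (SE; edgeR adjusted p = 0.0353). In the perineurial-like cells alone it was 1.06 (edgeR adjusted p = 0.787), and the call was lost when any 1 of TNF-inhibited animals 1 to 3 or IL-17-inhibited animal 2 was left out (adjusted p 0.0962 to 0.272). Leaving out TNF-inhibited animal 3 gave 2 calls for TNF-inhibited over untreated and 5 for IL-17-inhibited over untreated animals, leaving out IL-17-inhibited animals 1 or 2 gave 2 or 3 for the first of these, and leaving out IL-17-inhibited animals 1 or 3 gave 5 or 7 calls for IL-17-inhibited over TNF-inhibited animals.

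No healthy animal reached 10 assigned gated cells, with 9, 9 and 1 in the TNF-inhibited, IL-17-inhibited and untreated libraries. The contrasts with healthy animals therefore took every animal with at least 1 cell, over 1565 genes. For untreated over healthy animals 0 genes passed in edgeR (0%), where 138 had an unadjusted p under 0.05, and DESeq2 called 6. Leaving out untreated animal 1 or TNF-inhibited animal 3 gave 2 calls.

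For arthritic over healthy animals within libraries, edgeR called 4 genes higher (0.256%) and 2 lower (0.128%), 0.383% in all, and 186 had an unadjusted p under 0.05. Iigp1 and Ifi47 are GTPases induced by interferon. Iigp1 had 419, 245 and 342 CPM in TNF-inhibited, 404, 585 and 342 CPM in IL-17-inhibited and 0, 51.6 and 385 CPM in untreated animals, against 14.5, 13.7 and 0 CPM in the healthy animals of these libraries. It was above the healthy animal of its library in 8 of 9 arthritic animals (log2 fold change 4.73 ± 0.835 SE, edgeR adjusted p = 0.0139). Ifi47 had 379, 150 and 342 CPM in TNF-inhibited, 109, 159 and 159 CPM in IL-17-inhibited and 0, 51.6 and 99.7 CPM in untreated animals, against 29.1, 0 and 0 CPM in healthy animals. It was likewise above in 8 of 9 (3.84 ± 0.745, edgeR adjusted p = 0.0252). By library (TNF-inhibited, IL-17-inhibited, untreated), Iigp1 had 466, 366 and 137 CPM in gated cells and 1129, 1200 and 1050 CPM in Pecam1 barcodes. Ifi47 had 242, 112 and 65.1 CPM in gated cells and 166, 174 and 115 CPM in Pecam1 barcodes. Whether free RNA adds to the gated cells' level of these genes was not tested.

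Fth1, the heavy chain of the iron store ferritin, had 20226, 20576 and 16468 CPM in TNF-inhibited, 10932, 14552 and 14214 CPM in IL-17-inhibited and 10621, 17450 and 17584 CPM in untreated animals, against 5921, 7661 and 3624 CPM in healthy animals. It was above in 9 of 9 animals (log2 fold change 1.57 ± 0.299 SE, edgeR adjusted p = 0.0252), and its reads can be shared with near-identical pseudogene copies. Annotated fibroblasts had 38260, 24656 and 29725 CPM of Fth1 in the TNF-inhibited, IL-17-inhibited and untreated libraries. Whether free RNA adds to the gated cells' level of Fth1 was not tested. Gm12840, an unnamed transcript, was above in 9 of 9 (3.41 ± 0.597, edgeR adjusted p = 0.0139). The transcription factor Sox4 was lower in 9 of 9 arthritic animals, with 26.6, 23.7 and 13.7 CPM in TNF-inhibited, 8.41, 56.8 and 57.1 CPM in IL-17-inhibited and 0, 51.6 and 71.2 CPM in untreated animals, against 189, 480 and 213 CPM in healthy animals (-3.0 ± 0.481, edgeR adjusted p = 0.0139). In the healthy animal of the IL-17-inhibited library, 29 of 35 Sox4 UMIs lay in 1 cell, and in that of the untreated library the level is 1 UMI in 1 cell. Postn, a matrix protein, was lower in 9 of 9, with 106, 55.2 and 41.0 CPM, 84.1, 102 and 165 CPM and 177, 129 and 157 CPM in these groups, against 698, 370 and 426 CPM in healthy animals (-2.27 ± 0.381, edgeR adjusted p = 0.0139). In the healthy animal of the TNF-inhibited library, 47 of 48 Postn UMIs lay in 1 Schwann-like cell, and in that of the IL-17-inhibited library 17 of 27 lay in 1 cell. In perineurial-like cells alone Postn was at -0.81 (edgeR adjusted p = 0.572), and pooled over libraries it had 119 CPM in the perineurial-like and 530 CPM in the Schwann-like gated cells.

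The 6 calls rested on few healthy cells. Without the healthy animal of the TNF-inhibited library 0 genes passed in edgeR, where 173 had an unadjusted p under 0.05, and without that of the IL-17-inhibited library 2. Without that of the untreated library 11 were called, without untreated animal 1 there were 15, and without IL-17-inhibited animal 1 there were 14. With each cell given to its highest hashtag in place of a called one, 0 genes passed in edgeR, where 287 had an unadjusted p under 0.05, and Iigp1 was at 0.07 (edgeR adjusted p = 0.992). The hashtag 4 cells of mixed Xist and Y-linked content, given above, lie in these healthy animals, and their part in the result was not tested.

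The interferon response genes that could be measured had mostly positive fold changes in arthritic over healthy animals. Of 12 measured genes, 2 passed the test (Iigp1 and Ifi47, higher), 0 were lower and 11 had a positive log2 fold change, with a median of 2.26 beside 0.03 over all 1565 genes. Most animals of this fit were arthritic, so a gene near 0 in healthy animals passed the filter on low counts only through arthritic ones. The count of positive signs and the median are partly set by that filter and are no finding. The summed level of 28 interferon genes was 5163, 7037 and 5991 CPM in TNF-inhibited, 3515, 5583 and 4501 CPM in IL-17-inhibited and 1682, 1830 and 3534 CPM in untreated animals. In healthy animals it was 2182 CPM in the TNF-inhibited library, 1069 CPM in the IL-17-inhibited library and 3624 CPM in the 1 cell of the untreated library. The inhibitor-treated animals lay above the healthy animal of their library in 6 of 6 cases, and the untreated animals in 0 of 3. No interferon gene was called between arthritic groups, with 0 of 23 measured in each contrast and medians of 0.99 for TNF-inhibited over untreated, 0.22 for IL-17-inhibited over untreated and -0.66 for IL-17-inhibited over TNF-inhibited animals.

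The same list was read in other cells of the same animals. Annotated fibroblasts had 5314 ± 2669 CPM in TNF-inhibited, 4681 ± 1762 in IL-17-inhibited, 2121 ± 741 in untreated and 1090 ± 141 in healthy animals (SD, n = 3 each). Pecam1 barcodes had 7677 ± 2321, 7609 ± 2344, 5024 ± 1106 and 1886 ± 734 CPM. Annotated fibroblasts and Pecam1 barcodes were thus lowest in healthy animals. Gated cells of untreated and healthy animals overlapped, at 2349 ± 1029 and 2292 ± 1281 CPM (SD, n = 3 each). No test was made of whether the gated cells differ from the fibroblasts or the Pecam1 barcodes. The acute-phase list had 11 measured genes in arthritic over healthy animals, of which 0 were called and 11 were positive, with a median of 0.74. These signs and this median are likewise partly set by the filter on low counts.

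**Figure D5:**
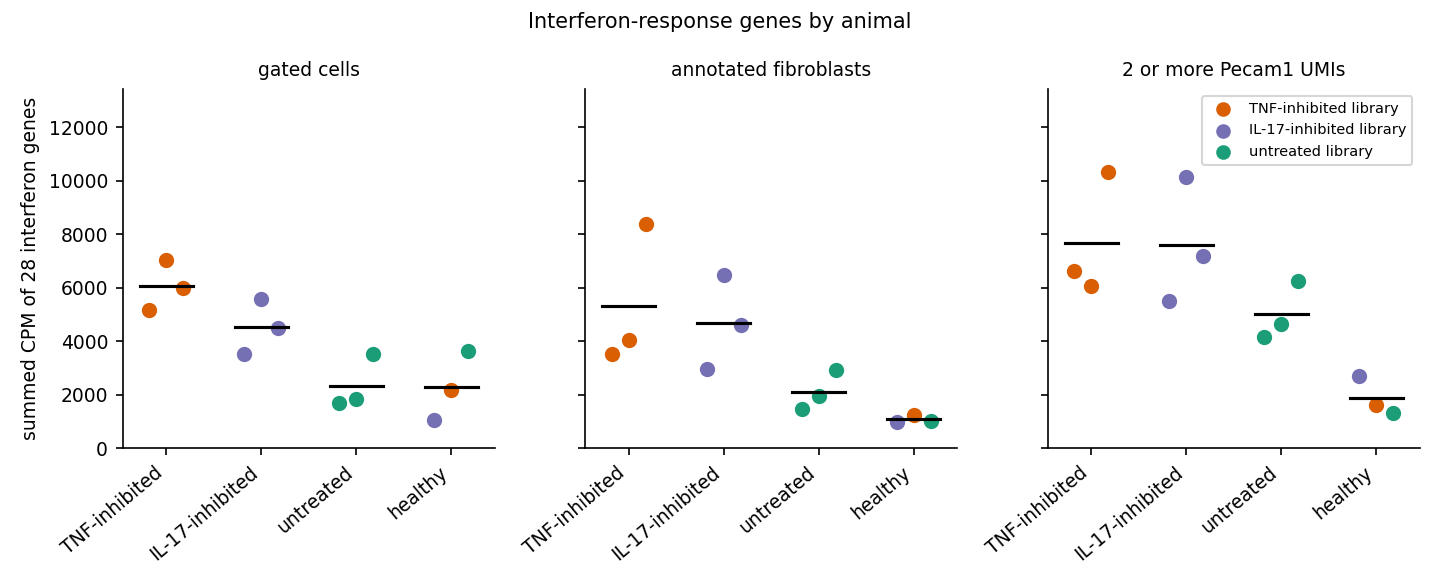
Summed CPM of 28 interferon-response genes (y axis) per animal in gated cells, annotated fibroblasts and barcodes with 2 or more Pecam1 UMIs, with colours for the library and black lines for group means. Fibroblasts and Pecam1 barcodes are lowest in the 3 healthy animals. Among gated cells the TNF-inhibited animals have the highest mean, at 5163 to 7037 CPM, and overlap with the IL-17-inhibited animals at 3515 to 5583 CPM.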

How the data were processed

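Cells of 12 animals in 3 unsorted libraries were used, with a FAP-sorted library beside them. The deposited matrices hold raw UMI counts for 32285 genes, and the file headers name Cell Ranger 6.0.0 (unsorted) and 5.0.0 (FAP-sorted). The submitters' processing notes name Cell Ranger 6.0.6 and build mm10. The deposited annotation gave class and animal for the listed cells, and their filter on cells is not stated there. Every per-cell value column of the files was mapped to its library.

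Unlisted cells got an animal with HTODemux (Seurat 5.3.0, quantile 0.99), and hashtag doublets stayed in the library counts and left the counts per animal. No other doublet caller was run. The 12913 unannotated barcodes with 500 or more genes and at most 10% mitochondrial UMIs were log-normalized and clustered (scanpy 1.11.5, leidenalg 0.10.2, 2000 variable genes, 30 components, 15 neighbours, resolution 0.6) without the 6 rule genes. CPM is UMIs per 1000000 of the summed cells. A gene was measured for identity at a mean of 10 CPM or more over libraries in gated cells or fibroblasts, and called at 4-fold in each of 3 libraries with 10 CPM added. The named genes were the 25 with the largest smallest-of-3-libraries ratio among genes of at least 50 UMIs, found in 20% or more of gated cells in each library; genes called between animals; and list genes that were called or that describe a list. A few genes that met this rule are not reported here; counts include them. Positions are from the GENCODE annotation of mm10. Barcodes with 2 or more Pecam1 UMIs were chosen after the data were seen. For levels pooled over libraries they also had 0 Ptprc and 0 Krt5 UMIs (1331 barcodes). For Saa3, Iigp1, Ifi47 and the list sums by animal this was not required.

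For tests, counts of an animal's gated cells were added up and fitted in edgeR 4.0.16 (under R 4.3.3; filterByExpr, TMM, quasi-likelihood test, Benjamini-Hochberg, threshold 0.05), with DESeq2 1.42.0 as an alternative. A minimum of 10 cells per animal left out all healthy animals, so the contrasts with them use a minimum of 1. Shares were tested by exact permutation over animals (scipy 1.17.1). Untreated contrasts between arthritic groups thus rest on 1 untreated animal. The fits were checked on simulated counts with a chosen spread, not that of these animals. Of 4-fold changes, 79.3% were recovered for IL-17-inhibited over TNF-inhibited animals. For TNF-inhibited and IL-17-inhibited over untreated animals, 25.5% and 13.0% were recovered. In each simulated contrast some unchanged genes were called too. Since the spread was chosen, how many changes the contrasts of these animals miss was not tested. At 8-fold the shares were 92.6%, 67.4% and 65.3% in the same order. Animals of a group share a library, so p-values measure the spread between animals within it. The rule, members and gene lists were chosen with earlier results of these data known.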

Additional observations from a re-analysis of the deposited data

Results flagged for a closer look

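The arthritic mean share of gated cells lay 0.194 percentage points above the healthy animal in the untreated library, with 3 of 3 arthritic animals above it, and at -0.574 points from it in the IL-17-inhibited library, with 0 of 3 above it. The arthritic animals thus lay on opposite sides of the 1 healthy animal of their library. The difference was not tested, since each library holds 1 healthy animal, and the healthy values rest on 9 cells in the IL-17-inhibited and 1 cell in the untreated library.

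In the FAP-sorted library, which no comparison between animals used, 67 of 10002 quality-passing barcodes (0.67%, Clopper-Pearson 95% interval 0.52 to 0.85) met the same gate. A gated cell there had detected a median of 7 of 15 perineurial and 1 of 14 Schwann markers.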

How the results depend on the processing

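The share difference among the 3 arthritic groups stayed past the threshold under all alternatives run, with F from 7.87 to 30.7, and the arthritic minus healthy difference passed it under none; its sign was positive with unannotated barcodes as denominator (0.723 points) and without the healthy animal of the IL-17-inhibited library. The share of gated cells in the largest cluster was 83.7% under each of 3 other clusterings. An 8-fold threshold left 50 genes higher and 3 lower than in fibroblasts. The 41 lower genes became 73 in perineurial-like cells alone and 62 without hashtag doublets.

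Calls between animals were few and moved with most settings; the cause was not tested. In the order TNF-inhibited over untreated, IL-17-inhibited over untreated, IL-17-inhibited over TNF-inhibited, untreated over healthy and arthritic over healthy within libraries, no filter on low counts gave 8, 27, 81, 19 and 77 calls, DESeq2 3, 4, 3, 6 and 29, and perineurial-like cells alone 2, 3, 6, 1 and 17. Giving each cell to its highest hashtag gave 0 calls in each, or, with at least 10 cells per animal, 4 and 2 in the contrasts with healthy animals, where Iigp1 turned to -0.17 (edgeR adjusted p = 0.964). In the 3 contrasts of arthritic groups, a minimum of 1 cell gave 0, 0 and 1 calls and a library term 0 in each; the library term gave 3 for untreated over healthy animals. Leaving out 1 animal gave 1 to 3, 2 to 5, 1 to 7, 0 to 2 and 0 to 15 calls. Same-numbered animals did not deviate together (r from -0.0273 to 0.0145 over 3305 genes); a replicate block gave 3, 3 and 9 calls in the arthritic contrasts, and 0, 1 and 2 with a minimum of 1 cell. A library term with at least 10 cells per animal, and untreated contrasts without untreated animal 3, could not be fitted.

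The healthy animals gave 4691 to 72967 UMIs of gated cells, so genes of a few CPM rest on a few UMIs or none there.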
